A study of Homo sapiens with 4 samples.

Results

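The genes described here are the 13 messages encoded by human mitochondrial DNA (mtDNA) and 28 nuclear genes. Most of the 28 copy mtDNA or transcribe, cut, stabilise, break down or translate its messages. NRF1, GABPA and PPRC1 were included as nuclear factors upstream of these. All members together are 41 of the 20263 genes in the deposited table, matched by symbol to human Ensembl identifiers, and all 41 were found. They were taken for what they do, with no measured value as a criterion, though earlier results of these data were known when they were chosen. The cells were HCT116, an established line from a human colon carcinoma, kept in medium with 10% serum and exposed for 24 h to the compound N_12 or to DMSO, a common solvent for such compounds. Each group had 2 libraries, built from 1.4 ug of total RNA with a kit for mRNA. The series title calls N_12 a derivative of nilotinib, a kinase inhibitor; the labels give no dose, and the treatment tag of the N_12 libraries carries another code, HJJ_3_5.

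Total counts were 41717938 and 39865327 in N_12 replicates 1 and 2, and 31120459 and 29769568 in DMSO replicates 1 and 2. All 41 members passed the filter on low counts. In the whole comparison 317 of 14105 tested genes were called by edgeR's quasi-likelihood test at a Benjamini-Hochberg adjusted p below 0.05, which is 2.25%, with 0.822% called higher and 1.43% called lower in N_12; without either N_12 library none was called. Of 10 epithelial and intestinal markers 7 reached 1 CPM (counts per 1000000 counts of the TMM-scaled library), among them EPCAM, KRT8 and CDX2, while VIL1, CDX1 and LGALS4 were at or near 0. The summed level of these 10 was 3421 and 4070.3 CPM in N_12, against 5065 and 4099 CPM in DMSO. Within the list EPCAM, KRT8, KRT19 and CDH1 lay below DMSO without overlap, as did 26.8% of all tested genes. CDX2 lay above, and KRT18 and CLDN4 overlapped. CLDN4 was at 70.6 and 376 CPM in N_12 and at 458 and 24.3 CPM in DMSO, far apart within each group. The part of these differences in the results below was not tested. Of 6 leukocyte markers 3, PTPRC among them, had 0 counts in each library and CD68 alone reached 1 CPM (45.0 CPM on average in N_12 and 37.9 in DMSO). Of 6 fibroblast markers 3, DCN among them, had 0 counts in each library and COL1A1 alone reached 1 CPM (57.5 CPM on average in N_12 and 62.7 in DMSO). The labels do not say whether replicates were separate cultures, so p-values measure only the spread between these libraries, which may be technical.

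Human mtDNA is a small circle without introns that is read from both strands as long precursors. Transfer RNAs sit between most messages, and cutting them out on either side frees the messages: RNase P, made of TRMT10C, HSD17B10 and PRORP, cuts in front of each tRNA and ELAC2 cuts behind it. The messages then receive short poly(A) tails and are held by LRPPRC and SLIRP. Since all messages but MT-ND6 are cut from precursors of the same strand, the level of each depends on its stability and processing as well as on transcription. All 13 encode subunits of the respiratory chain or of ATP synthase. The polymerase, the nucleases and the translation factors are made from nuclear genes and imported.

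Some of the 13 share bases, which limits how their counts can be separated. In GENCODE release 29 (GRCh38, chromosome M, plus strand) the last 46 bases of MT-ATP8 are the first 46 of MT-ATP6, which is 22.2% of the length of MT-ATP8, and MT-ND4L and MT-ND4 share 7 bases. The shared bases are in capitals below with 20 bases of each neighbour in lower case, at chrM:8507-8592 and chrM:10740-10786, since the ratios between these partners are compared further on.
MT-ATP8 and MT-ATP6: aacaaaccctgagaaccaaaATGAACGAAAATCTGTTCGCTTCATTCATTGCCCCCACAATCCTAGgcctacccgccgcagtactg
MT-ND4L and MT-ND4: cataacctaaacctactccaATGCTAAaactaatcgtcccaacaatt
The other members lie on nuclear chromosomes. The deposited table gives no coordinates, and the positions here are those of the annotation, not of the build that the submitters used. Of 37 mtDNA genes in this annotation the deposited table held these 13 and 0 of the tRNA and rRNA genes. By symbol it also held 0 nuclear copies of mtDNA messages, so none of these could be analysed. Nuclear copies resemble several MT- messages closely, so reads could have been split between them in the authors' counting.

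The 13 mitochondrial messages together took a larger part of the counts in N_12. Their share was 9.61% and 8.23% in N_12 replicates 1 and 2, against 6.59% and 7.73% in DMSO replicates 1 and 2 (8.92% ± 0.976 in N_12 and 7.16% ± 0.803 in DMSO, SD, n = 2 each). Both N_12 libraries lay above both DMSO libraries, though N_12 replicate 2 exceeded DMSO replicate 2 by less than the DMSO libraries differed from each other. Exact binomial 95% intervals, which cover counting error only, were narrow (8.22% to 8.24% in N_12 replicate 2). Both N_12 libraries had higher total counts than both DMSO libraries, so depth cannot be told apart from treatment here and its part was not tested. With 2 libraries against 2 no exact two-sided test can go below 0.333, and no test of the share was made. In bulk RNA, fewer cells of a kind and less RNA per cell cannot be told apart.

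Message by message, 12 of 13 had a log2 fold change (N_12 over DMSO) above 0, the median was 0.24 against 0.01 over all tested genes, and 1 was called higher, MT-ND1, where 0.822% of all tested genes were called higher. Separate groups were seen for 7 of 13, each with N_12 above, against 27.9% of all tested genes with N_12 above. The messages are cut from shared precursors and counted in the same libraries, so they are not 13 independent measurements. The size of the shift depended on the treatment of GC content and length. With both corrected for, a setting chosen after seeing the data, the median was 0.53 and all 13 lay above 0. Without N_12 replicate 1 the median was 0.16 and only 9 of 13 lay above 0. Without N_12 replicate 2 the median was 0.40 and 13 lay above 0, so the count above 0 depended on single libraries.

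**Figure D1:**
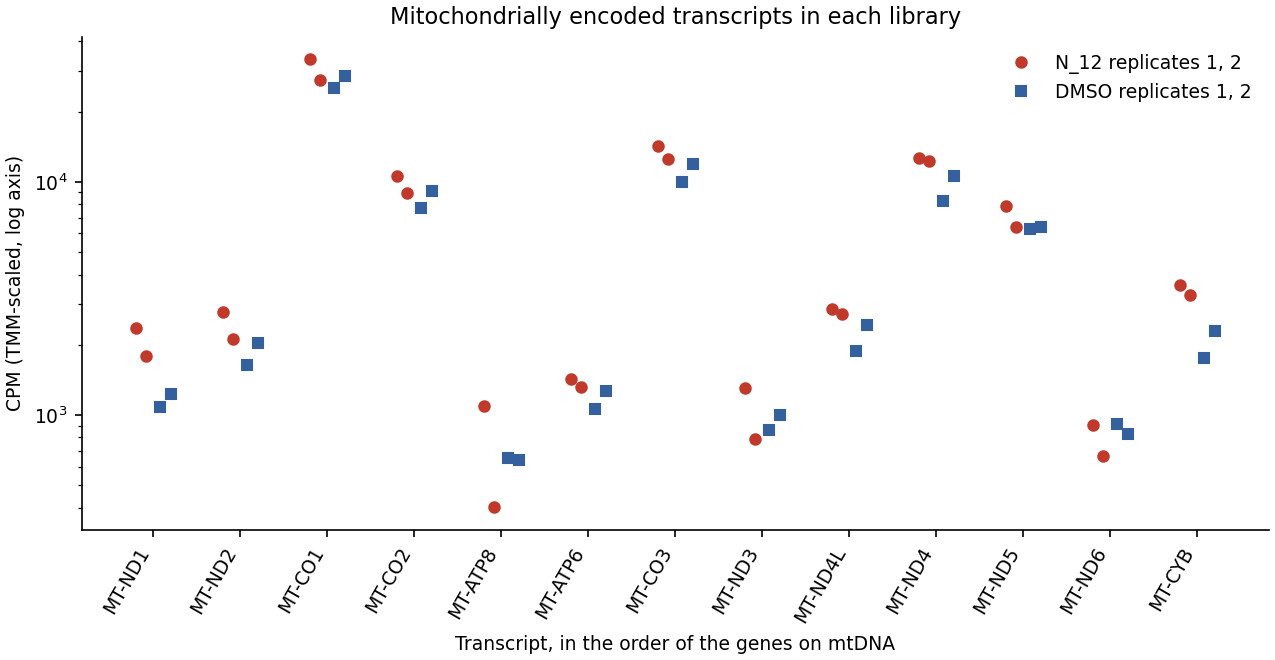
CPM of the 13 mitochondrially encoded transcripts in each library (log axis), in the order of the genes on mtDNA, with N_12 libraries as circles and DMSO libraries as squares. MT-ND1 and MT-CYB show the clearest gap between groups, and the N_12 libraries lie far apart for MT-ATP8.

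MT-ND1 (ENSG00000198888, chrM:3307-4262, plus strand) encodes a core membrane subunit of complex I and is the first message after the ribosomal RNAs on the heavy-strand precursor. It rose, at 2354 and 1788 CPM in N_12 replicates 1 and 2, against 1082 and 1235 CPM in DMSO replicates 1 and 2. The lower N_12 library was well above the higher DMSO library. The log2 fold change was 0.84 (SE 0.17, 95% interval 0.45 to 1.22), a 1.79-fold rise, and edgeR's adjusted p was 0.0494. This call sits at the threshold: adjusted p was 0.173 with N_12 replicate 1 left out, 0.148 with N_12 replicate 2 left out, 0.113 with DMSO replicate 1 left out, 0.0811 with limma-voom and 0.0822 with edgeR without robust dispersions, while the log2 fold change ranged from 0.61 to 1.03 over the 14 alternatives.

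MT-CYB (ENSG00000198727, chrM:14747-15887, plus strand), the cytochrome b of complex III, had the next difference in size among the 13. Its levels were 3604 and 3255 CPM in the N_12 libraries, against 1761 and 2299 CPM in the DMSO libraries, without overlap. The log2 fold change was 0.76 (SE 0.16, 95% interval 0.38 to 1.13), and the adjusted p of 0.0595 by edgeR missed the threshold. It passed in 5 of the 14 alternatives, among them DESeq2 (adjusted p = 0.00227). The adjusted p was 0.0873 with limma-voom and 0.0864 with edgeR without robust dispersions, both above the threshold. Over the 14 alternatives the log2 fold change ranged from 0.58 to 0.96. MT-CYB is the last message on the heavy-strand precursor and MT-ND1 the first, so the largest differences stood at both ends of the gene order.

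The other complex I messages of the heavy strand were not called. MT-ND4 was at 12643 and 12315 CPM in N_12 and at 8253 and 10559 CPM in DMSO (log2 fold change 0.41, adjusted p = 0.198), and MT-ND4L, read from the same bicistronic message, gave 2856 and 2705 CPM in N_12 and 1874 and 2438 CPM in DMSO (0.37, adjusted p = 0.228). MT-ND2 had 2763 and 2115 CPM in N_12 and 1632 and 2024 CPM in DMSO (0.42, adjusted p = 0.224). For these 3 the groups did not overlap, but the gap to DMSO replicate 2 was small for MT-ND2. MT-ND5 (0.17) and MT-ND3 (0.17) had overlapping groups, and both lay below 0 without N_12 replicate 1.

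The 3 messages of cytochrome c oxidase (complex IV), the most abundant of the 13 per kilobase, were not called. MT-CO1 was at 33570.1 and 27269.5 CPM in N_12 and at 25160 and 28543 CPM in DMSO, so that the groups overlapped (log2 fold change 0.18, 95% interval -0.20 to 0.56). MT-CO2 overlapped as well (0.22, -0.15 to 0.58). MT-CO3 gave 14198 and 12499 CPM in N_12 and 10001 and 11870.0 CPM in DMSO, without overlap and not called (0.29, adjusted p = 0.323). Per kilobase of exon, MT-CO1 (19728 RPKM, that is CPM per kilobase, in N_12 and 17413 in DMSO) and MT-CO3 (17026 RPKM in N_12 and 13948 RPKM in DMSO) were the highest of the 13 in both groups.

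The ATP synthase messages MT-ATP6 and MT-ATP8 share a bicistronic transcript, and the ratio of their counts varied between libraries. MT-ATP6 was at 1425 and 1312 CPM in N_12, against 1057 and 1260.4 CPM in DMSO (log2 fold change 0.24, adjusted p = 0.357). MT-ATP8 was at 1089 and 401 CPM in N_12, against 653 and 643 CPM in DMSO. The N_12 libraries thus lay on either side of the DMSO libraries, 2.71-fold apart, and the 95% interval of its log2 fold change ran from -1.69 to 2.10. The ratio of MT-ATP8 to MT-ATP6 counts was 0.764 and 0.306 in N_12 and 0.617 and 0.510 in DMSO. In the other bicistronic pair, MT-ND4L to MT-ND4, it was 0.226 and 0.220 in N_12 and 0.227 and 0.231 in DMSO, within a narrow range in each library. MT-ATP8 has 207 bases, the fewest of the 13, and MT-ND3, with 346 bases, was also 1.65-fold higher in N_12 replicate 1 than in N_12 replicate 2. MT-ND4L has 297 bases and differed by 1.06-fold between them. The part of length or library preparation in this was not tested.

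MT-ND6 (ENSG00000198695, chrM:14149-14673, minus strand), a complex I subunit, is the one message encoded on the other strand, and in human cells it is known to lack a poly(A) tail. It alone had a log2 fold change below 0, at -0.15 (95% interval -0.55 to 0.24, adjusted p = 0.647), which became 0.15 with correction for GC content and length. Its levels were 909 and 665 CPM in N_12 and 917 and 831 CPM in DMSO. The groups overlapped. Since the strand setting of the counting is not given in the sources used here, reads from RNA of the opposite strand over MT-ND6 cannot be told apart from its own.

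Within the counts on the 13, the parts of 6 messages did not overlap between the groups: N_12 was above for MT-ND1, MT-ND2 and MT-CYB and below for MT-ND6, MT-CO1 and MT-CO2. By CPM, another measure, the groups did not overlap for 27.9% of all tested genes with N_12 above and 26.8% with N_12 below. Separation was thus common among all genes. Of the 13 messages, the 3 with the widest difference on the log2 scale were MT-ND1, MT-CYB and MT-ND6. MT-ND1 made up 2.47% and 2.22% of the counts on the 13 in N_12 and 1.61% and 1.58% in DMSO. MT-CYB made up 3.79% and 4.04% in N_12 and 2.62% and 2.94% in DMSO. MT-ND6 made up 0.955% and 0.826% in N_12, against 1.36% and 1.06% in DMSO. Ratios of these 3 to another message come from the same counts, so they restate the shares and are not further evidence. MT-ND1 to MT-ND2 was 0.852 and 0.845 in N_12 and 0.663 and 0.610 in DMSO. MT-CYB to MT-ND5 was 0.459 and 0.510 in N_12 and 0.280 and 0.359 in DMSO. MT-ND6 to MT-ND5 was 0.116 and 0.104 in N_12 and 0.146 and 0.130 in DMSO. Such ratios show unequal differences between these libraries and do not say which member differed. MT-CO1, the largest part of the 13, took 35.3% and 33.9% in N_12 and 37.4% and 36.5% in DMSO. These shares add up to a whole, so a larger part for some requires a smaller part for others, and with 2 libraries a group they were not tested.

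**Figure D2:**
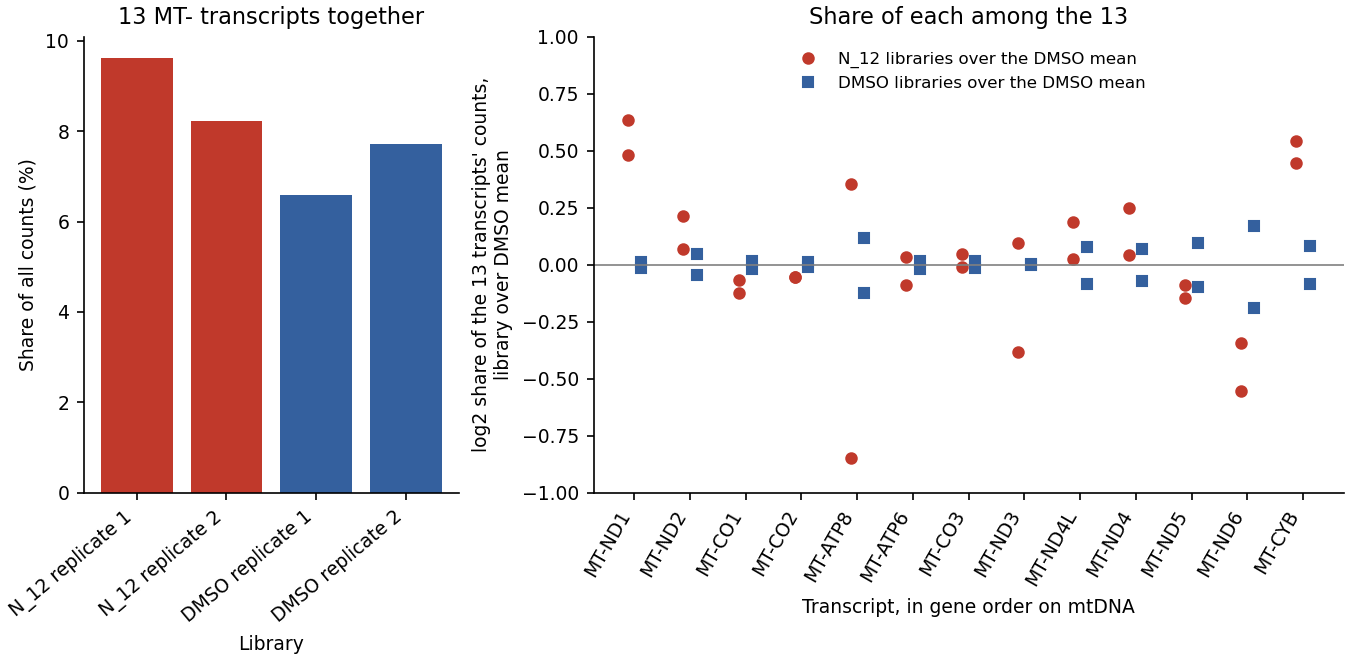
Left, share of all counts on the 13 MT- transcripts in each library (%); right, log2 share of each transcript among the 13, each library over the DMSO mean, N_12 as circles left of DMSO as squares. The N_12 shares of MT-ND1 and MT-CYB lie above those of DMSO and the N_12 share of MT-ND6 lies below, while MT-ATP8 and MT-ND3 spread between the N_12 libraries.

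**Figure D3:**
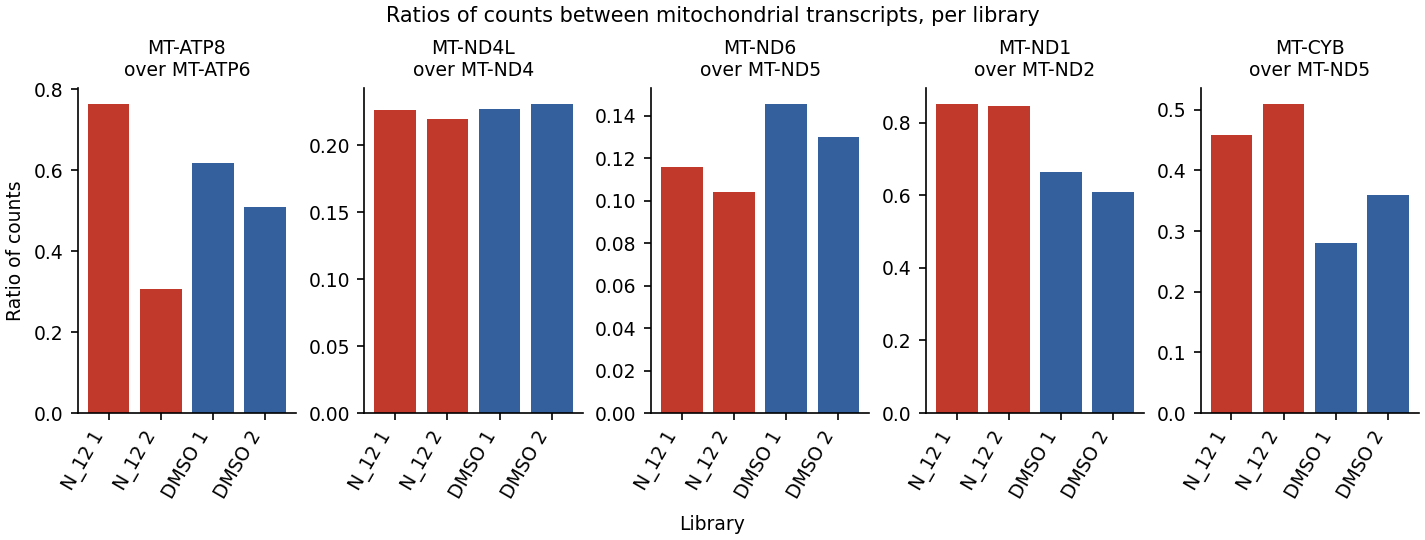
Ratio of counts between mitochondrial transcripts in each library (bars from 0; axes differ between panels), with N_12 libraries left of DMSO libraries. MT-ND4L over MT-ND4 stays between 0.220 and 0.231, whereas MT-ATP8 over MT-ATP6 runs from 0.306 to 0.764.

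Among the 28 nuclear genes 1 was called higher and none lower, beside the 0.822% of all tested genes called higher. By edgeR 6 of the 28 (21.4%) had an unadjusted p below 0.05, against 21.8% of all tested genes. Of the 28, limma-voom called 0 and DESeq2 2 (7.14%), against 8.68% of all genes called by DESeq2. These shares were near those of all genes. Their median log2 fold change was 0.05, against 0.24 for the 13 MT- messages and 0.01 for all tested genes, and 16 lay above 0 and 12 below. The groups did not overlap for 16 of them, 11 with N_12 above (27.9% of all tested genes) and 5 with N_12 below (26.8%). Their summed level was 1847 and 1845 CPM in N_12, against 1607 and 1662 CPM in DMSO, and TUFM alone made up 411 and 459 CPM of it in N_12 and 365 and 346 CPM in DMSO. Per kilobase of exon, mean levels of the nuclear members ran from 1.57 (TEFM) to 191 RPKM (TUFM) in N_12 and from 1.49 to 156 RPKM in DMSO. The lowest MT- message was at 1499 RPKM in N_12 (MT-ND6) and at 1212 RPKM in DMSO (MT-ND1), so every MT- message lay above every nuclear member.

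PPRC1 (ENSG00000148840), a coactivator of the PGC-1 family that responds to growth signals and acts with NRF1, rose. It stood at 81.1 and 79.5 CPM in the N_12 libraries, against 45.9 and 44.1 CPM in the DMSO libraries. Replicates were close together and the groups well apart. The log2 fold change was 0.84 (SE 0.14, 95% interval 0.51 to 1.16), a 1.78-fold rise with adjusted p = 0.0297 by edgeR. Over the 14 alternatives it ranged from 0.80 to 0.88, but the adjusted p was 0.0513 with limma-voom, 0.0550 with edgeR without robust dispersions, and 0.0686 to 0.146 with any 1 library left out, all above the threshold. NRF1 and GABPA, transcription factors that this coactivator is known to work with, had intervals that included 0. NRF1 averaged 27.1 ± 1.29 CPM in N_12 and 29.6 ± 0.796 CPM in DMSO (SD, n = 2 each; log2 fold change -0.13, 95% interval -0.48 to 0.22), and GABPA, the DNA-binding subunit of the ETS factor GABP, had overlapping groups (0.06, -0.40 to 0.52).

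**Figure D4:**
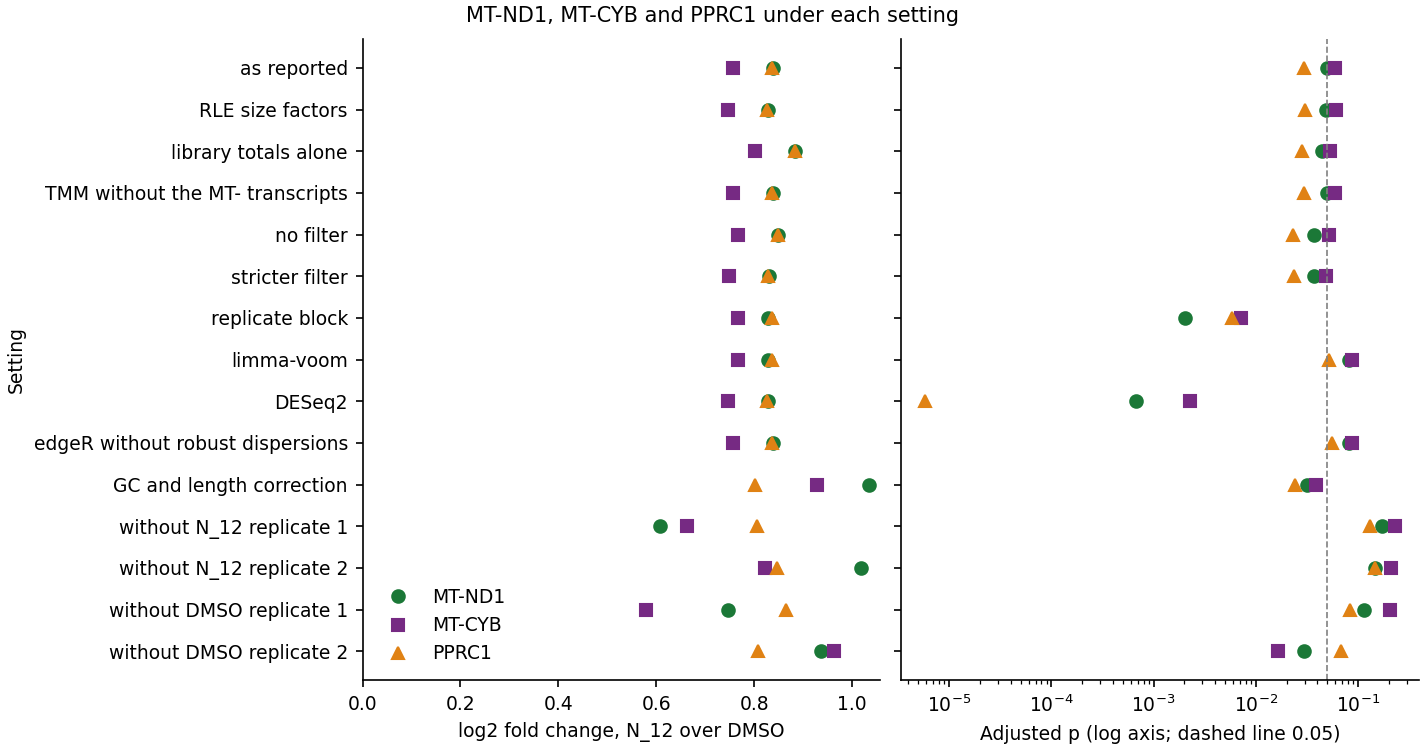
Log2 fold change (left) and adjusted p (right, log axis, dashed line at 0.05) of MT-ND1, MT-CYB and PPRC1 as reported and under each of 14 other settings. PPRC1 stays between 0.80 and 0.88 on the log2 scale, and the adjusted p-values of these genes fall on both sides of the line.

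The genes grouped here under transcription of mtDNA, TFB1M included, were not called, and 4 of 5 had a log2 fold change below 0. POLRMT, the mitochondrial RNA polymerase, was at 160 and 195 CPM in N_12 and 195 and 163 CPM in DMSO, a log2 fold change of -0.02 (95% interval -0.38 to 0.35) that was 0.03 when libraries were scaled by their totals. TFAM, which packs mtDNA and opens its promoters, was at 49.0 and 34.4 CPM in N_12 and 52.0 and 50.5 CPM in DMSO (-0.30, -0.75 to 0.15). TFB1M, which methylates the small ribosomal RNA, was at 21.8 and 19.6 CPM in N_12 and 24.7 and 28.7 CPM in DMSO (-0.37, -0.75 to 0.01). For both, N_12 lay below DMSO without overlap. The initiation factor TFB2M had a log2 fold change of -0.04, which was 0.01 with library totals and 0.07 with correction for GC content and length. The elongation factor TEFM had one of 0.07, and for both the groups overlapped.

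Genes that copy and maintain mtDNA were not called either. TWNK, the replicative helicase of mtDNA, was at 33.4 and 36.7 CPM in N_12 and 25.4 and 24.8 CPM in DMSO (log2 fold change 0.48, 95% interval 0.13 to 0.83, adjusted p = 0.134). Its groups were clearly apart. MGME1, an exonuclease that trims mtDNA ends, had an N_12 mean of 29.8 ± 0.145 CPM and a DMSO mean of 23.3 ± 6.46 CPM (SD, n = 2 each), and the DMSO libraries differed by 1.49-fold. The polymerase subunits POLG (-0.13) and POLG2 (-0.19) and the single-strand binding protein gene SSBP1 (-0.17) had log2 fold changes below 0 with intervals that included 0.

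For the enzymes that free the messages at tRNAs, 4 of 4 log2 fold changes lay above 0 and none was called. ELAC2, the nuclease behind the tRNA, was at 88.7 and 96.7 CPM in N_12 and 70.3 and 74.8 CPM in DMSO (log2 fold change 0.35, 95% interval 0.04 to 0.67, adjusted p = 0.194). Both N_12 libraries were higher. The RNase P subunits HSD17B10 (0.01) and TRMT10C (0.05) had overlapping groups. PRORP, the catalytic subunit, was at 40.9 and 22.7 CPM in N_12 and 16.2 and 17.6 CPM in DMSO (0.91, 0.22 to 1.60, adjusted p = 0.146). N_12 replicate 1 decided its size: the log2 fold change was 0.41 without that library and 1.27 without N_12 replicate 2. The adjusted p was 0.0339 with DESeq2 and 0.00640 with the replicate number as a block, and missed the threshold in the other 12 alternatives (0.0979 to 0.414). PRORP shares 40.9% of its exon bases with AL121594.1 on the same strand, which had 336 and 736 counts in N_12 and 457 and 395 in DMSO. PRORP took 83.7% and 55.7% of the sum of both in N_12 and 52.0% and 56.7% in DMSO, so N_12 replicate 1 stood apart in the split, and the counts of PRORP are uncertain. The sum itself was 48.9 and 40.8 CPM in N_12, against 31.2 and 31.1 CPM in DMSO.

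Of 8 genes that stabilise, tail or break down the messages, 5 lay above 0 and none was called. The helicase gene SUPV3L1 was at 37.2 and 36.6 CPM in N_12 and 24.8 and 29.7 CPM in DMSO (log2 fold change 0.44, 95% interval 0.06 to 0.81, adjusted p = 0.178). Its partner in the RNA-degrading complex, the exonuclease gene PNPT1, averaged 29.6 ± 5.88 CPM in N_12 and 22.7 ± 3.73 CPM in DMSO (SD, n = 2 each; 0.39, -0.07 to 0.85). LRPPRC was at 247 and 231 CPM in N_12 and at 146 and 229 CPM in DMSO (0.35, -0.17 to 0.87), where DMSO replicate 1 was the low library and DMSO replicate 2 nearly matched N_12. SLIRP, which forms a complex with LRPPRC, had overlapping groups (-0.08). FASTKD5, which acts at message ends that have no tRNA, such as the start of MT-CYB, was at 20.5 and 18.9 CPM in N_12 and 14.8 and 18.8 CPM in DMSO (0.23, -0.19 to 0.66). The poly(A) polymerase gene MTPAP (0.05), the RNA granule gene FASTKD2 (-0.05) and GRSF1 (-0.01, and 0.04 with library totals), which binds light-strand RNA, had overlapping groups.

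Among the elongation factors of mitochondrial translation, TUFM was at 411 and 459 CPM in N_12 and 365 and 346 CPM in DMSO (log2 fold change 0.29, 95% interval -0.01 to 0.59). GFM1 was at 38.1 and 33.0 CPM in N_12 and 27.3 and 25.3 CPM in DMSO (0.43, 0.06 to 0.81, adjusted p = 0.175). Both were higher in each N_12 library than in either DMSO library, and neither was called. TSFM, the exchange factor of TUFM, was at 12.4 and 20.6 CPM in N_12 and 19.0 and 17.6 CPM in DMSO (-0.15, -0.73 to 0.44), with N_12 replicate 1 as the low library. TSFM shares 18.7% of its exon bases with AC025165.3 on the same strand, which had 4 to 12 counts per library. Exons of genes on the opposite strand overlap 13 of the nuclear members; the largest overlaps are 16.8% of TEFM (AC130324.3), 13.4% of MTPAP (AL353796.2), 9.79% of TSFM (AVIL), 9.34% of TEFM (ADAP2), 7.86% of TFB1M (TIAM2), 7.66% of POLG (FANCI) and 7.61% of GABPA (ATP5PF), and with the strand setting unknown their reads cannot be told apart there.

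**Figure D5:**
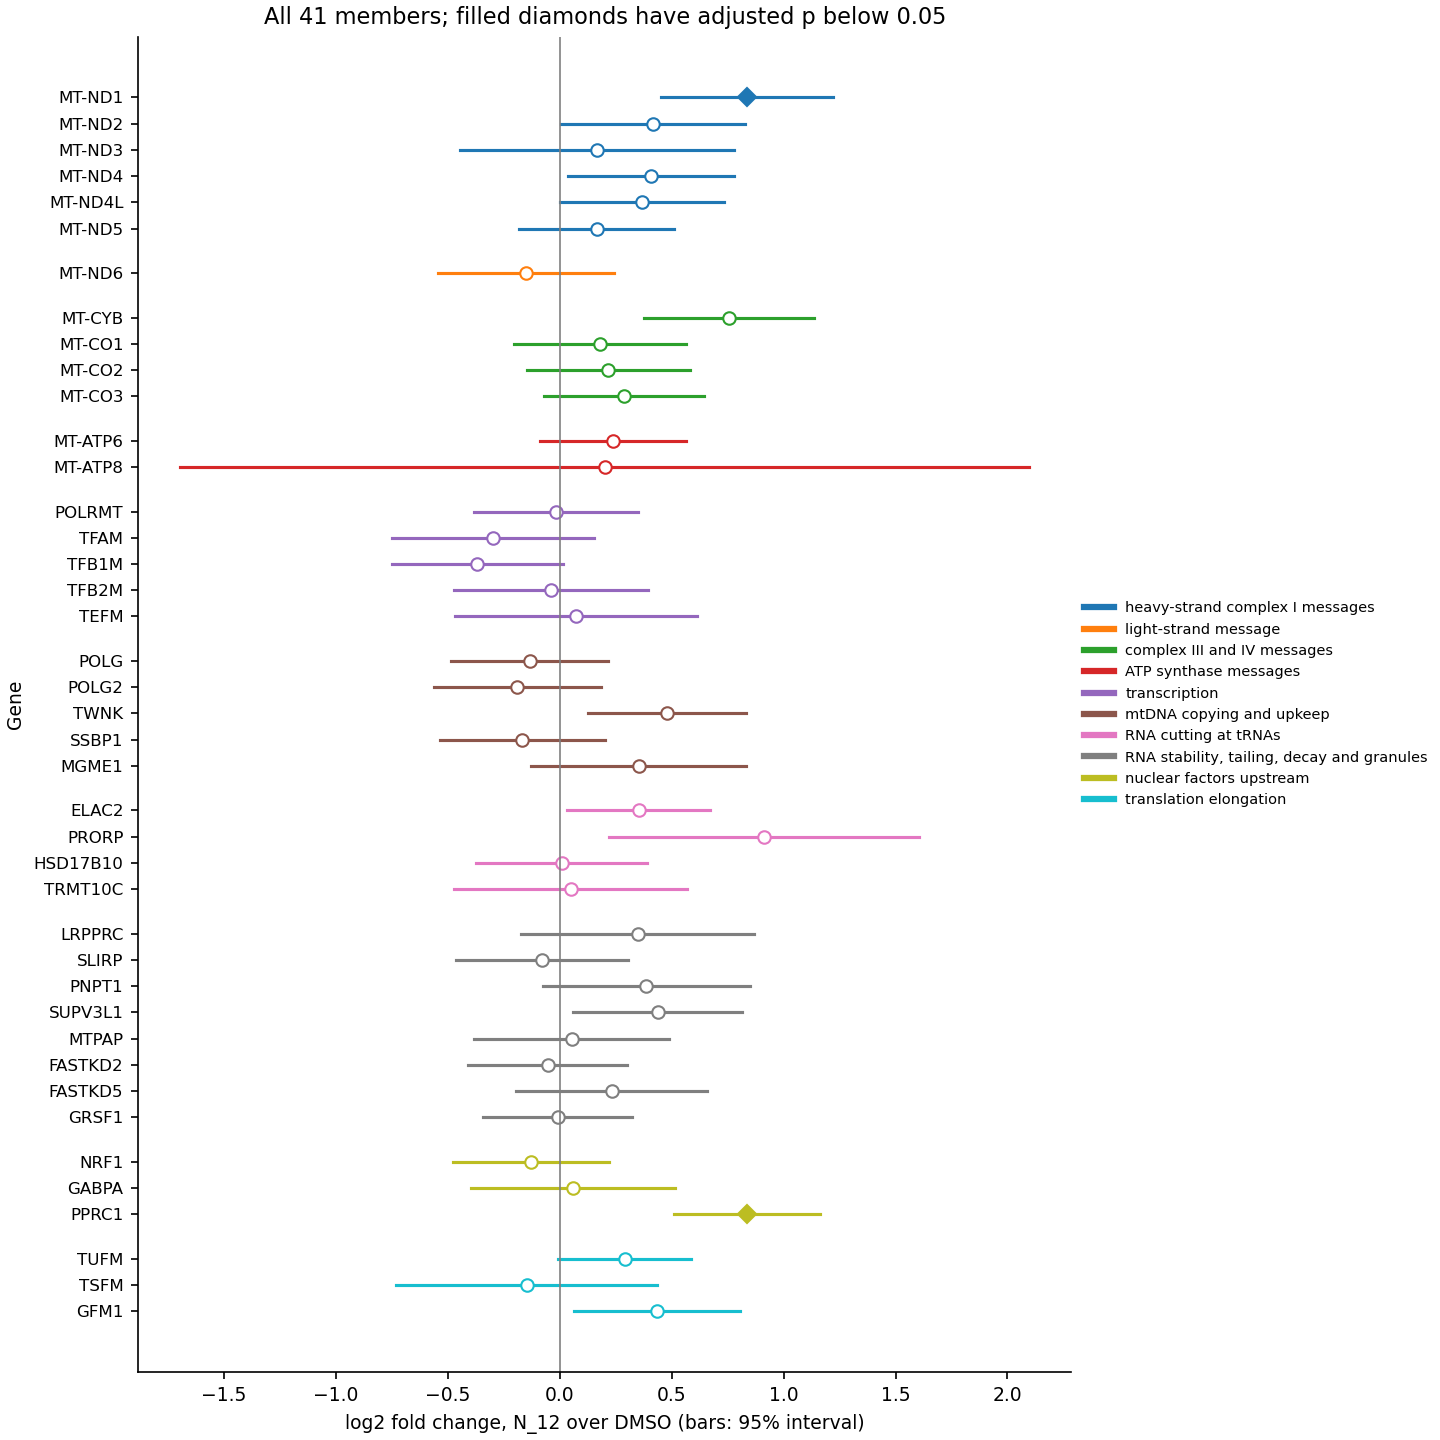
Log2 fold change (N_12 over DMSO) of all 41 members with 95% intervals, grouped by role; filled diamonds mark an adjusted p below 0.05. MT-ND1 and PPRC1 carry diamonds, and the signs of POLRMT, TFB2M and GRSF1, close to 0, turn when libraries are scaled by their totals.

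Of 67 other genes of mitochondrial gene expression on a wider list (mtDNA upkeep, transcription control, RNA stability, RNA modification and translation), 66 were tested and none was called by edgeR, limma-voom or DESeq2. Of all tested genes these called 2.25%, 0.929% and 8.68%, in that order. By edgeR 10 of the 66 (15.2%) had an unadjusted p below 0.05, against 21.8% of all tested genes. The median log2 fold change was 0.12, with 43 above 0 and 23 below. The smallest p-values were those of NSUN4, a methyltransferase of mitochondrial ribosomal RNA (28.7 and 28.4 CPM in N_12, 19.6 and 21.1 CPM in DMSO, log2 fold change 0.49, adjusted p = 0.129), and MTO1, which modifies mitochondrial tRNAs (23.5 and 26.2 CPM in N_12, 15.8 and 18.4 CPM in DMSO, 0.54, adjusted p = 0.129). The release factor family members MTRFR (0.61, adjusted p = 0.134) and MTRF1 (0.43), the RNA helicase gene DDX28 (0.50), ANGEL2 (0.40), the DNA ligase gene LIG3 (0.41) and POLDIP2 (0.29) lay on the same side. ESRRA, a nuclear receptor that drives genes of oxidative metabolism, was at 25.8 and 40.3 CPM in N_12 and 43.2 and 58.0 CPM in DMSO (-0.61, 95% interval -1.22 to -0.01, adjusted p = 0.225). MTERF4 had overlapping groups (0.33). The coactivator gene PPARGC1A had 2 counts over all 4 libraries and was not tested.

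Promoters of 25 of the 28 nuclear members, in 31 entries, were found in RefSeq's table (GRCh38.p14, 300 bases around the start, most of them before it). TWNK, FASTKD5 and NRF1 were not. Searched on both strands, the letters CCGGAAG, a core bound by GABP and other ETS factors, occurred in 14 of the 31 promoters (45.2%), against 15.8% of 16260 promoters of tested genes and 10.3% of all 35116. By gene this was 11 of 25 (44.0%), against 21.1% of 11150 tested genes. The core of the NRF1 site, GCGC and TGCGC with any 1 base between, occurred in 4 of 31 promoters (12.9%), those of TFB1M, TFAM, POLG2 and POLRMT, against 9.13% of promoters of tested genes and 5.78% of all. The promoters of PPRC1, the nuclear gene that was called, of ELAC2, with the most ETS letters (3 matches, of which 2 overlap in 1 run), and of TFB1M, which holds both motifs as POLG2 and POLRMT do, are shown to compare them, with matches in capitals and each read along the gene's own strand. They lie at chr10:102132790-102133089 (plus), chr17:13017978-13018277 (minus) and chr6:155314435-155314734 (minus).
PPRC1: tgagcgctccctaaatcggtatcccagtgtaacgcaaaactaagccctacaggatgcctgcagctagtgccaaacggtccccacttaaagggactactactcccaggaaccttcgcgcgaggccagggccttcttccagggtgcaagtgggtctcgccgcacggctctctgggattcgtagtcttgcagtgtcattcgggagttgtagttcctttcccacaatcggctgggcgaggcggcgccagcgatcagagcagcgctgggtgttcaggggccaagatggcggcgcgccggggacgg
ELAC2: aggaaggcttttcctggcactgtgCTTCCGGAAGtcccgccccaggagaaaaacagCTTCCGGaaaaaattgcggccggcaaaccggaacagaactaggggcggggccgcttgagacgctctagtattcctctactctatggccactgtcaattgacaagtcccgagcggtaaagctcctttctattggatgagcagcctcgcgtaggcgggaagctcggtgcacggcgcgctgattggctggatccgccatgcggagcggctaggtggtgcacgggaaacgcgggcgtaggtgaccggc
TFB1M: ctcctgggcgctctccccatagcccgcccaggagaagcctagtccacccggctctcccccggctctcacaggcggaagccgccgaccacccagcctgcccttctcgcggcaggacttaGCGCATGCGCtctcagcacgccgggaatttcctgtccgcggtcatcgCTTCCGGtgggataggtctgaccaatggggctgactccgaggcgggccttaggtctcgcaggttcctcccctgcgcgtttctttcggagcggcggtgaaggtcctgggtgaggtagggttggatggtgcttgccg
PPRC1 holds neither motif in this window. ELAC2 and TFB1M both hold the ETS letters and had log2 fold changes of opposite sign (0.35 and -0.37), and neither was called. A match in letters is a description of the sequence and was not tested as a binding site.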

How the data were processed

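RNA sequencing of HCT116 cells gave 1 table of whole-number counts per gene for 4 libraries, deposited by the authors without normalization. Groups and replicate numbers came from the sample titles. The strand setting, like the aligner and counting tool, is not given in the sources used here. Mouse builds (GRCm38, mm10) stand in the submitters' processing notes, although the identifiers are human. Of 20263 identifiers 20148 had a symbol. In R 4.3.3, edgeR 4.0.16 scaled libraries by TMM (factors 0.980 to 1.02), kept genes with its expression filter and fitted a robust quasi-likelihood model of N_12 against DMSO, without a replicate term. Benjamini-Hochberg adjustment ran over all 14105 tested genes, two-sided, at 0.05. CPM values use TMM-scaled totals, and intervals are 95%. Exon lengths, GC content and overlaps came from GENCODE release 29. The genes and lists were chosen with earlier results of these data known; the 41 members are all named, and of the wider list up to 2 genes per role with the smallest p. limma 3.58.1 (voom) and DESeq2 1.42.0 were alternatives. The procedure was tested on simulated data in which every gene had the same dispersion, so this does not show how reliable the calls here are. A chi-square test of replicate counts gave 57.2 (N_12) and 36.5 (DMSO) per degree of freedom, above sampling noise, so no library was merged with another.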

Additional observations from a re-analysis of the deposited data

How the results depend on the processing

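Alternatives were run on 4 libraries or with 1 left out; the correction for GC content and length was chosen after seeing the data. Over all genes 116 were called higher and 201 lower; these counts became 438 and 525 with the replicate number as a block, 47 and 84 with limma-voom, 551 and 674 with DESeq2, 47 and 84 with edgeR without robust dispersions, and 461 and 567 with GC and length correction. Leaving out 1 library gave 0 to 226 higher and 0 to 225 lower, with 0 of either when an N_12 library was left out and 2855 and 2763 genes at an unadjusted p below 0.05 without N_12 replicates 1 and 2. Replicate numbers are not stated to pair libraries, and same-numbered deviations had a correlation of -0.09 across genes.

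Of the 13 MT- messages 1 was called; 2 were called with the stricter filter, with the replicate block, with DESeq2 and with GC and length correction, 0 with limma-voom and with edgeR without robust dispersions, and 0 to 2 with 1 library left out. Of the nuclear members 1 was called; 2 were with the replicate block, DESeq2 and GC and length correction, 0 with limma-voom and without robust dispersions, and 0 (0 to 0) with 1 library left out. No MT- message, nuclear member or gene of the wider list was called lower in any setting run. Over all genes the stricter filter called 158 higher and 258 lower of 11306 tested. Like the replicate block, DESeq2 and the GC and length correction, it thus called more genes than the 116 and 201 as reported. The MT- median of 0.24 became 0.53 with GC and length correction and ranged from 0.16 to 0.40 with 1 library left out; the nuclear median of 0.05 ranged from 0.021 to 0.21. The MT- share without the 10 most abundant nuclear genes was 9.37% in N_12 and 7.60% in DMSO. The cause of these changes was not tested.

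Signs turned for some members, none of them called. Most were near 0 as reported, but MT-ATP8 was 0.20, MT-ND3 and MT-ND5 were 0.17, and MT-ND6 and TSFM were -0.15. The MT- median was 0.24. With library totals POLRMT was 0.032, TFB2M 0.0061 and GRSF1 0.039; without a filter GRSF1 was 0.0051; with GC and length correction MT-ND6 was 0.15 and TFB2M 0.068. With 1 library left out the log2 fold change ranged from -0.26 to 0.48 for MT-ND3, -0.0082 to 0.30 for MT-ND5, -0.41 to 0.054 for MT-ND6, -0.71 to 0.74 for MT-ATP8, -0.17 to 0.12 for POLRMT, -0.22 to 0.11 for TFB2M, -0.17 to 0.26 for TEFM, -0.16 to 0.14 for HSD17B10, -0.31 to 0.32 for TRMT10C, -0.18 to 0.036 for SLIRP, -0.16 to 0.22 for MTPAP, -0.14 to 0.013 for FASTKD2, -0.12 to 0.12 for GRSF1, -0.16 to 0.26 for GABPA and -0.56 to 0.16 for TSFM. The effect of depth on these signs was not tested.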
